A study of Rattus norvegicus with 2 samples.

Results

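The numbered zinc finger protein genes are those whose symbol is Zfp or Znf followed by a number and nothing else, such as Zfp652 or Znf846. Of 144 such symbols with a named probe set, Zfp36 was left out because it encodes an RNA-binding protein that speeds the decay of messenger RNA, which left 143 genes of 15037 named genes on the array. Most of these genes encode proteins with arrays of Cys-His zinc fingers, small folds held by a zinc ion that read DNA sequence. Many also carry a KRAB domain, which binds the scaffold protein Trim28 and through it brings histone methyltransferases, heterochromatin proteins and DNA methylation to repeats and other targets. Such genes often lie side by side in clusters, and some of their products bind methylated DNA.

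RNA came from epidermal keratinocytes, the main cell type of the outer skin, taken from newborn rats and cultured in 10% serum with hydrocortisone. In the siTet2/3 group the cells were transfected with siRNAs against Tet2 and Tet3, at 1 µM each, and then received vitamin C for 12 h, beginning 24 h after transfection. The control group, labelled NC and described as non-treated, received the same vitamin C. The protocol gives the same times for both groups and mentions cells transfected without the siRNAs. The labels do not say if NC cells had the reagent alone or a different siRNA. TET enzymes start DNA demethylation by oxidising methylcytosine, and vitamin C raises their activity. Each group had 1 array, so there is no replicate check and no test, "higher" and "lower" describe these 2 arrays only, and the precision of each value is limited by having only these.

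Values are signals per gene on the deposited log scale. Its base was taken as 2 because the submitters' processing notes name RMA, although the deposited values run higher than plain RMA usually gives, so every fold rests on that base. Each difference is the siTet2/3 value minus the control value. A floor of 5.04 log2 units marks background: it is the level that 95% of 1206 olfactory, vomeronasal, taste and trace amine receptor genes did not exceed on either array. Tet1, Tet2 and Tet3 had no named probe set, so the size of the knockdown was not analysed here. The 5 keratinocyte markers with a named probe set, Krt14, Krt17, Tp63, Itga6 and Dsg3, read 12.75 to 18.70 log2 units on the siTet2/3 array and 13.15 to 18.54 on the control array. Markers of other cells were mostly under the floor on both arrays: 0 of 6 fibroblast, 1 of 4 melanocyte, 1 of 5 immune, 1 of 4 endothelial and 2 of 4 Merkel cell markers passed it. Those above it were Tek (9.25 log2 units on the siTet2/3 array, 9.66 on the control array), Isl1 (7.20 on the siTet2/3 array, 6.70 on the control array), Mitf (5.41 on the siTet2/3 array, 5.33 on the control array), Cd68 (5.24 on the siTet2/3 array, 5.52 on the control array) and Sox2. Sox2 read 4.93 on the siTet2/3 array and 5.71 on the control array, at least 1.59-fold lower. The part of such cells in the results was not tested. In bulk RNA, fewer cells of a type and less RNA per cell cannot be told apart.

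The upstream sequences of 4 genes are shown because they belong to the widest differences with a listed promoter and both values above the floor (Zfp652 lower, Zfp637 higher) and to a pair of neighbours, Zfp458, which was past 1.5-fold lower, and Zfp455, which was not. Each is the 250 bases before the first transcription start listed by RefSeq on build GRCr8, on the plus strand, and capitals mark CG dinucleotides, the sites where DNA is methylated. The motif searched was CG, which reads the same on both strands. The windows lie at chr10:81179969-81180218 (Zfp652), chr4:152677496-152677745 (Zfp637), chr2:86401264-86401513 (Zfp458) and chr2:86426714-86426963 (Zfp455).
Zfp652: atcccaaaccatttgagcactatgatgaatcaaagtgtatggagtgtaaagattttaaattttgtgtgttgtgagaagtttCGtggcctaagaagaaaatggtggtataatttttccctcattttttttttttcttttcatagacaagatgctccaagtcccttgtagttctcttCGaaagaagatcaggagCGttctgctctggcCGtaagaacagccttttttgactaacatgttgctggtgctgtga
Zfp637: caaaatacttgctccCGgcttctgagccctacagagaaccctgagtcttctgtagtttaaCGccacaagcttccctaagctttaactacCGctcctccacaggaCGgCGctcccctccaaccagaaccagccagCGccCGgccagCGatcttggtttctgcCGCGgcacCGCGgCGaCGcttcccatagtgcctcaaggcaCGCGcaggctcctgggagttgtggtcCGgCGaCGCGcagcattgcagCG
Zfp458: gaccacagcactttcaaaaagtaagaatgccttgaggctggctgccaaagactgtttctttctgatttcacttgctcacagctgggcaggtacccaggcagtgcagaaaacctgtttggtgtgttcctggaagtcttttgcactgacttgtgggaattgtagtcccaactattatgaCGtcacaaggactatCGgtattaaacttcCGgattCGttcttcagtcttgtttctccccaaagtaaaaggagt
Zfp455: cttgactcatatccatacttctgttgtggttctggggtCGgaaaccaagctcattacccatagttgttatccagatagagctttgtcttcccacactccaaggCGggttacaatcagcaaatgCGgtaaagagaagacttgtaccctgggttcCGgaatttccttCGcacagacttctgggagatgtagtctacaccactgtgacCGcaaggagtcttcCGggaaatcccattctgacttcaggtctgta
The Zfp637 window held 21 CG sites, and 16.3% of the windows of the same length before 27457 RefSeq genes held as many or more. The windows of Zfp652 and Zfp458 held 4 each, a number that 63.9% of windows reached, and that of Zfp455 held 7, which 47.5% reached. These windows do not stand for the members: in the 300 bases around the start, the higher Zfp609 and Zfp46 had 2 CG sites each, while the lower Zfp292, Zfp513 and Zfp52 had 32, 24 and 23.

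Of the 143 genes, 99 (69.2%) passed the floor on at least 1 array, against 53.9% of all named genes, which include the chemoreceptors. Among these 99 genes, the siTet2/3 array gave a signal at least 1.5-fold higher for 10, at least 1.5-fold lower for 15 and neither for 74. Of all 8103 named genes above the floor, 21.8% were past 1.5-fold, 8.63% higher and 13.2% lower, and for the zinc finger genes the shares were 25.3%, 10.1% and 15.2%. These shares lay near those of the background in both directions. After the differences were centred on the median of all genes, 13 members were higher and 13 lower (26.3%), and 845 of all genes were higher and 899 lower (21.5%). The members' median stayed below zero, at -0.07. With the negative-control level of 8.31 log2 units as the floor, 25 members were left, of which 3 were higher and 4 lower, or 28.0%, against 17.0% of 4124 named genes.

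The median difference of the 99 members was -0.12 log2 units, and that of all named genes above the floor was -0.05. Differences of members ran from -1.19 to 1.48, with quartiles at -0.42 and 0.26; for all genes the quartiles were -0.36 and 0.24. Below zero lay 56 members, or 56.6%, against 55.0% of all genes. Among named genes with a mean level of 5.38 to 9.58 log2 units, the range that holds the middle 79 members, 23.3% were past 1.5-fold (8.58% higher and 14.7% lower) and the median was -0.07. In that range 24.1% of the members were past 1.5-fold (6 higher and 13 lower), with a median of -0.18. At 2-fold 2 members were higher and 2 lower, or 4.04%, where 4.86% of all genes passed that limit.

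**Figure D1:**
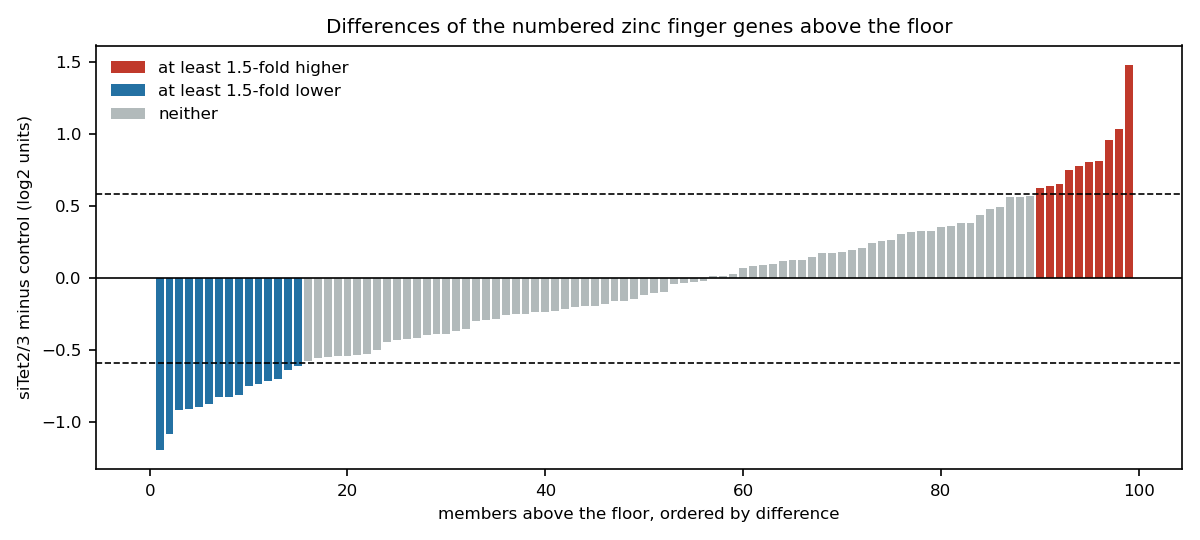
Bars give the difference in log2 signal (siTet2/3 minus control, 1 array each) of the 99 members above the floor, ordered from lowest to highest; dashed lines mark 1.5-fold. The 15 lower and 10 higher members sit at the ends of a continuous spread with no gap at the limit.

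**Figure D2:**
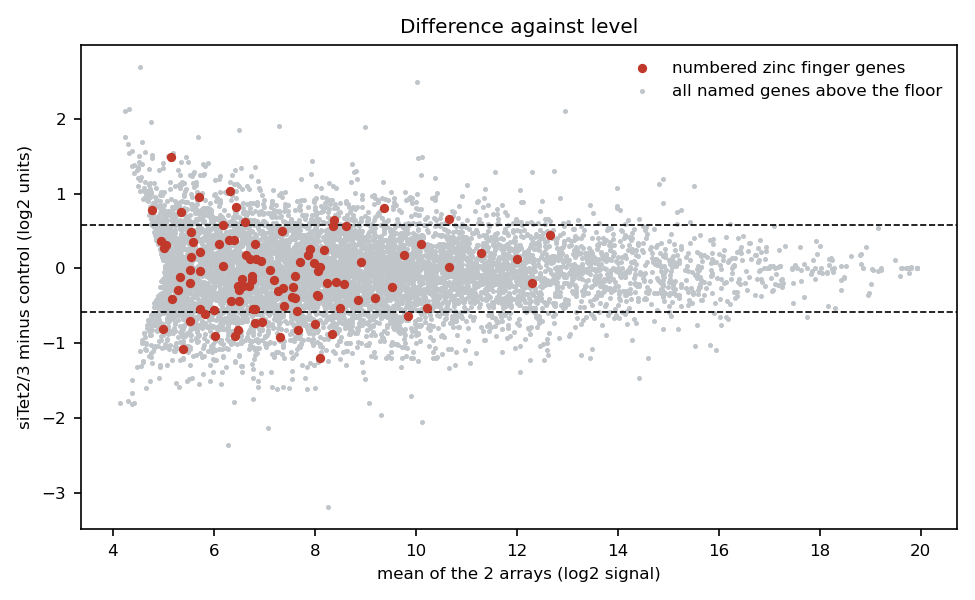
The horizontal axis is the mean log2 signal of the 2 arrays and the vertical axis the difference in log2 units, siTet2/3 minus control, for the zinc finger genes (red) and all 8103 named genes above the floor (grey); dashed lines mark 1.5-fold. The members lie inside the cloud of other genes, most of them between 5 and 9 log2 units.

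Of the 99 members, 90 were above the floor on both arrays and 9 on 1 array only. A gene of the second kind had to differ to be included, and its fold is written "at least", with the floor in place of the dimmer value. Of the 90, 7 were higher and 13 lower by 1.5-fold, or 22.2%, against 18.9% of all named genes above the floor on both arrays. Of the 25 members past 1.5-fold, 18 were on both arrays at or below 8.31 log2 units. This is the level that 95% of the negative-control probe sets did not exceed on either array. Of all 99 members, only 25 read above it on at least 1 array, so most members were this dim, whether past 1.5-fold or not. Among the 1206 chemoreceptor genes, taken with no floor, 28.9% were past 1.5-fold, so differences of this size also occurred among genes used as a gauge of background.

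The gene with the widest difference in the higher direction was Zfp9, which read 5.89 log2 units on the siTet2/3 array and 4.41 on the control array; the control value was below the floor, so it was at least 1.80-fold higher. Zfp637 read 6.85 on the siTet2/3 array and 5.81 on the control array, a 2.05-fold difference with both values above the floor. Zfp365, whose human counterpart encodes a protein that binds DISC1 and helps to keep the genome stable, read 6.19 on the siTet2/3 array and 5.23 on the control array (1.94-fold). These 3 genes led the increases, all at levels below 7 log2 units. Zfp612 read 6.84 on the siTet2/3 array against 6.03 on the control array, or 1.76-fold higher. Zfp609, which encodes a partner of the cohesin loader Nipbl and of the Integrator complex, read 9.78 on the siTet2/3 array and 8.97 on the control array (1.75-fold), and it was 1 of 3 increased members past the negative-control level. The other 2 of these were Zfp800, at 10.99 on the siTet2/3 array and 10.33 on the control array (1.58-fold), and Zfp46, at 8.71 on the siTet2/3 array and 8.06 on the control array (1.56-fold).

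The remaining increases were smaller or bounded. Zfp597, an imprinted gene in humans, read 6.94 on the siTet2/3 array against 6.31 on the control array (1.54-fold). Zfp362 read 5.73 on the siTet2/3 array and 4.97 on the control array, and with the control value below the floor it was at least 1.61-fold higher. Zfp472 read 5.17 on the siTet2/3 array and 4.39 on the control array, for which the bound was 1.09-fold, so its call rested on a value in the background. Just short of 1.5-fold were Zfp367, at 6.46 on the siTet2/3 array and 5.89 on the control array, and Zfp451, which encodes a ligase for the small modifier SUMO. Zfp451 read 8.65 on the siTet2/3 array and 8.08 on the control array. Both passed 1.5-fold after centring, as did Zfp426.

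In the lower direction the widest difference was that of Zfp652, whose human counterpart encodes a repressor that works with the co-repressor CBFA2T3. It read 7.50 log2 units on the siTet2/3 array and 8.70 on the control array, or 2.28-fold lower, with both values above the floor. Zfp287 read 4.85 on the siTet2/3 array and 5.92 on the control array; as the first value was below the floor, it was at least 1.85-fold lower. Zfp414 read 5.96 on the siTet2/3 array against 6.86 on the control array (1.87-fold). Zfp652 was thus the only decrease of 2-fold or more with both values above the floor. Zfp513, mutated in an inherited retinal degeneration in humans, read 5.57 on the siTet2/3 array and 6.46 on the control array (1.86-fold). Zfp707 read 7.90 on the siTet2/3 array and 8.77 on the control array (1.83-fold) and Zfp868 read 7.26 on the siTet2/3 array and 8.08 on the control array (1.77-fold).

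Zfp707 has a relative with a lettered symbol on the array, Zfp707l1, which is not a member. It read 7.14 on the siTet2/3 array and 8.07 on the control array, a 1.90-fold lower signal. Other such pairs differed more. Zfp709 was past 1.5-fold lower, while Zfp709l1, at 6.45 on the siTet2/3 array and 6.62 on the control array, was not. Zfp455 had a negative difference, while Zfp455l1 read 6.11 on the siTet2/3 array and 6.05 on the control array. Whether the probe sets of Zfp707 and Zfp707l1 respond to the same transcripts was not tested, and the same holds for other closely related zinc finger genes.

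The other 9 decreases past 1.5-fold included Zfp410, Zfp52, Zfp53 and Zfp458, described further on by role and by neighbourhood. Zfp292, whose human counterpart is mutated in a disorder of brain development, read 6.46 on the siTet2/3 array and 7.19 on the control array (1.66-fold). Zfp282, whose human counterpart represses transcription from a retroviral repeat, read 4.58 on the siTet2/3 array and 5.39 on the control array, with a bound of 1.28-fold. Zfp703, a gene amplified in some human breast cancers, read 5.51 on the siTet2/3 array and 6.12 on the control array (1.52-fold), the value closest to the limit among all members counted. Zfp703 and Zfp317, at 9.52 on the siTet2/3 array and 10.16 on the control array, no longer passed 1.5-fold after centring. Zfp386 was closest to the limit among those lower but not counted, at 7.35 on the siTet2/3 array and 7.93 on the control array. Zfp709 read 5.18 on the siTet2/3 array and 5.87 on the control array.

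**Figure D3:**
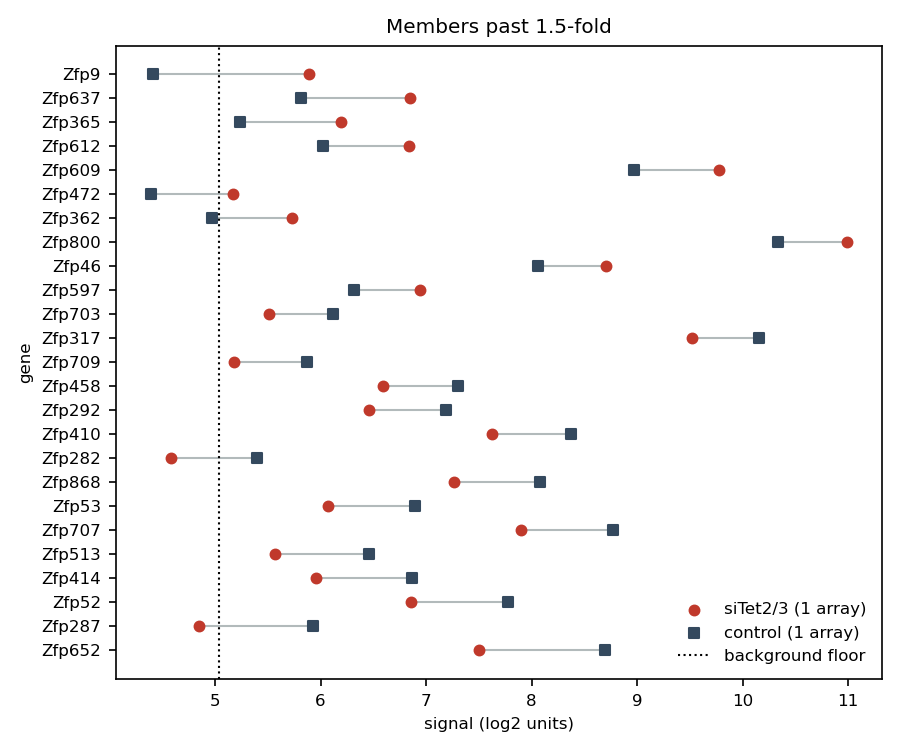
Log2 signals of the 25 members past 1.5-fold on the siTet2/3 array (circles) and the control array (squares), ordered by difference; the dotted line is the background floor of 5.04. The 10 genes at the top are higher and the 15 below them lower on the siTet2/3 array, and in 5 genes 1 of the values lies left of the floor.

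Members were also grouped by known role. Of 26 role-list genes with a named probe set, 21 passed the floor, 1 was past 1.5-fold higher and 2 lower, or 14.3%, against 21.8% of all named genes above the floor. Zfp750, which drives late differentiation of human epidermis, had no named probe set under either spelling. Of the genes that silence imprinted regions in mice, Zfp57, whose protein binds a methylated motif, read 8.99 log2 units on the siTet2/3 array and 9.39 on the control array. Zfp445 read 8.01 on the siTet2/3 array and 7.94 on the control array. Both were well above the floor and neither passed 1.5-fold.

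Among genes whose products work with chromatin complexes, Zfp609 was higher, as above, and Zfp410 was lower. Zfp410 encodes an activator of Chd4, a subunit of the NuRD remodelling complex, in mice and humans; it read 7.62 on the siTet2/3 array and 8.37 on the control array (1.68-fold). The closest relative of Zfp609 by name, Zfp608, read 6.19 on the siTet2/3 array and 6.16 on the control array. These neighbours in name thus differed by unequal amounts, 0.81 and 0.03 log2 units. Zfp644, whose human counterpart encodes a partner of the methyltransferases EHMT1 and EHMT2, read 7.95 on the siTet2/3 array and 7.77 on the control array. Zfp592 read 6.36 on the siTet2/3 array and 6.59 on the control array and Zfp532 read 7.55 on the siTet2/3 array and 7.65 on the control array, genes whose human products share a complex.

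Of 6 genes on the promoter-factor list, 5 passed the floor. The median difference of these 5 was 0.18 log2 units, where that of all named genes above the floor was -0.05. Their differences ran from -0.53 to 0.49. The other role groups, with 2 to 6 genes above the floor each, had medians from -0.40 to -0.03. With so few genes, no difference between groups was tested. Zfp148, which binds GC-rich promoters, read 12.21 log2 units on the siTet2/3 array and 12.41 on the control array, and Zfp143, a general activator, read 9.85 on the siTet2/3 array and 9.67 on the control array. Zfp384, a regulator of matrix genes, read 9.97 on the siTet2/3 array and 10.49 on the control array, while Zfp91, a ubiquitin ligase of the NF-kB pathway, read 12.87 on the siTet2/3 array and 12.43 on the control array. None of these 4 passed 1.5-fold. Zfp219, a cofactor of Sox9 in cartilage, read 7.59 on the siTet2/3 array and 7.09 on the control array, and Zfp202 was under the floor at 4.79 on the siTet2/3 array and 4.41 on the control array. The pluripotency-linked Zfp281 read 7.45 on the siTet2/3 array and 7.70 on the control array, and Zfp217, amplified in human breast cancers, read 6.57 on the siTet2/3 array and 6.80 on the control array.

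Of 5 genes on the list of mesenchymal and neural progenitor factors, 2 passed the floor, Zfp24 and Zfp703. Zfp703 was past 1.5-fold lower, as above. Zfp521, Zfp516 and Zfp467 read 3.05 to 4.35 log2 units on the siTet2/3 array and 3.94 to 4.32 on the control array, all under the floor. Zfp24, needed for myelination in mice, read 8.14 on the siTet2/3 array and 8.33 on the control array. Genes of ribosome and RNA handling went both ways without passing 1.5-fold. Zfp598, the ubiquitin ligase that senses collided ribosomes, read 5.73 on the siTet2/3 array and 6.28 on the control array, and the nucleolar gene Zfp330 read 8.23 on the siTet2/3 array and 8.76 on the control array. Zfp622, a maturation factor of the large ribosomal subunit, read 6.98 on the siTet2/3 array and 6.66 on the control array. Zfp830 read 7.76 on the siTet2/3 array and 7.67 on the control array, and Zfp593 was under the floor at 4.58 on the siTet2/3 array and 4.43 on the control array.

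**Figure D4:**
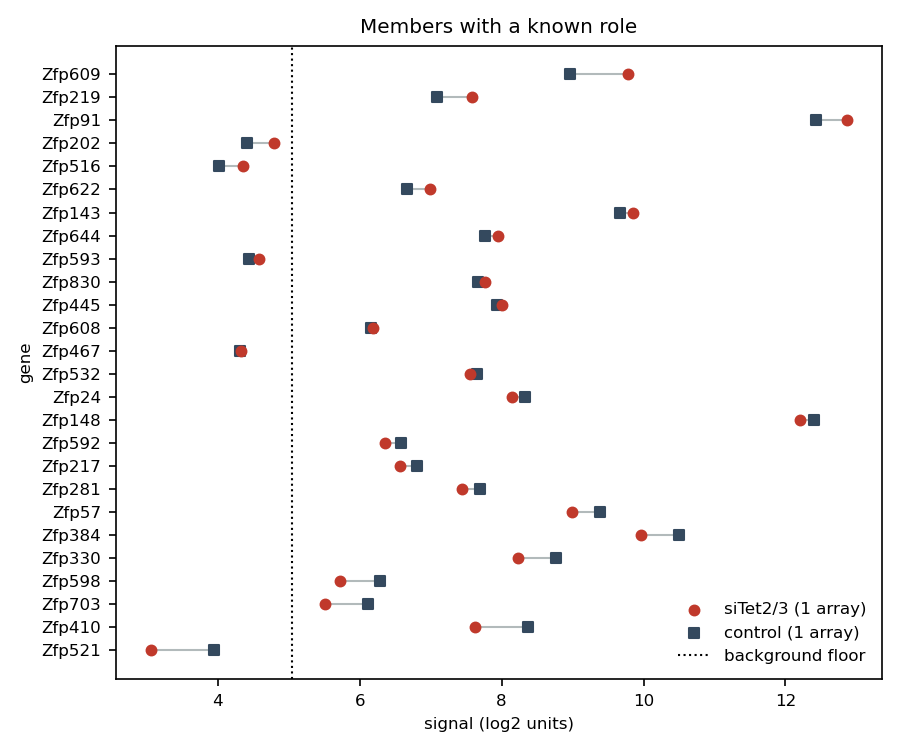
Log2 signals of the 26 role-list genes on the siTet2/3 array (circles) and the control array (squares), ordered by difference; the dotted line is the background floor of 5.04. Zfp609 at the top and Zfp410 and Zfp703 near the bottom are past 1.5-fold and above the floor, and 5 genes lie left of the floor on both arrays.

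Of the 74 members past neither limit, 12 differed by at most 0.10 log2 units, among them Zfp260 (10.68 on the siTet2/3 array, 10.66 on the control array) and Zfp347 (8.11 on the siTet2/3 array, 8.09 on the control array). Zfp91, Zfp148, Zfp266, Zfp655, Zfp260 and Zfp800 were the 6 members that read above 10 log2 units on both arrays, and their differences reached at most 0.66. The 44 members at or under the floor had a median difference of 0.01 log2 units and ran from -1.04 to 0.70. They read 2.45 to 4.99 on the siTet2/3 array and 2.68 to 4.99 on the control array, and 5 of them were past 1.5-fold as measured: Zfp133 and Zfp583 higher, Zfp329, Zfp521 and Zfp870 lower. The 5 were 11.4% of the 44. A share over all named genes at or under the floor is not given here. Among the 1206 chemoreceptor genes that set the floor, 28.9% were past 1.5-fold. At any level and with no floor, 21.0% of the 143 members and 22.4% of all 15037 named genes were past 1.5-fold. These 5 were not counted, since their signals cannot be told apart from background.

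Zinc finger genes arise by tandem duplication, so neighbours were compared in the RefSeq gene order of assembly GRCr8. There were 6 runs of 4 or more members with at most 3 other protein-coding genes between one member and the next. In the run from Zfp26 to Zfp846 all 4 members passed the floor and 0 passed 1.5-fold: Zfp26, Zfp426 and Zfp266 had positive differences and Zfp846 a negative one. In the run from Zfp799 to Zfp563 the 3 members above the floor had positive differences, with Zfp472 past 1.5-fold as measured. The largest run, 7 members from Zfp786 to Zfp467, held 3 above the floor. Of these, Zfp282 was past 1.5-fold lower as measured. Its neighbour Zfp956 read 5.79 on the siTet2/3 array and 5.31 on the control array. The run from Zfp583 to Zfp787 had 0 of 4 members above the floor. Of the members from Zfp180 to Zfp94, 2 passed the floor, both with negative differences. Those from Zfp74 to Zfp382 had 3 above it, 2 negative and 1 positive. Neither of these runs had a member past 1.5-fold. Over the 6 runs, 15 members passed the floor, of which 1 was higher, 1 lower and 13 neither. Their median difference was 0.02 log2 units, and 21.8% of all named genes above the floor were past 1.5-fold. Zfp472 and Zfp282 each had 1 value under the floor. Of the 13 run members above it on both arrays, 0 were past 1.5-fold, against 18.9% of all such named genes.

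The following 2 shorter runs were singled out after their values were seen. Zfp53 and Zfp52 stand in 1 run with Zfp54: Zfp53 read 6.07 log2 units on the siTet2/3 array and 6.90 on the control array (1.77-fold), and Zfp52 read 6.86 on the siTet2/3 array and 7.78 on the control array (1.89-fold). Zfp54 was under the floor. Zfp458 read 6.59 on the siTet2/3 array and 7.30 on the control array (1.64-fold), and its neighbour Zfp455, whose window is shown above, read 7.35 on the siTet2/3 array and 7.73 on the control array, 1.30-fold, which did not pass. Over all 14 runs with 2 or more members above the floor, the differences had 1 sign in 8 runs (6 negative, 2 positive) and both signs in 6. Of 19 consecutive member pairs 57.9% shared their sign, against 50.2% of 6920 such pairs of all named genes. Some of the 19 pairs share a gene.

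CG density at the promoter was computed as the ratio of observed to expected CG sites in the 300 bases around the RefSeq start (250 before and 50 after), which was listed for 120 of the 143 members. The median over all named genes with a listed promoter was 0.66. Of the members above the floor, 51 lay above this ratio and 31 at or below it. The CG-rich members had 4 higher and 6 lower (19.6%) with a median difference of -0.04 log2 units, where 20.0% of all CG-rich named genes were past 1.5-fold with a median of -0.06. The CG-poor members had 4 higher and 5 lower (29.0%) with a median of -0.15, where all CG-poor named genes had 26.3% and -0.04. The larger share past 1.5-fold on the CG-poor side was also present over all genes. The 17 members above the floor with no listed promoter had 2 higher and 4 lower (35.3%) with a median of -0.28, where all such genes had 21.9% and -0.07. No DNA methylation was measured here.

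**Figure D5:**
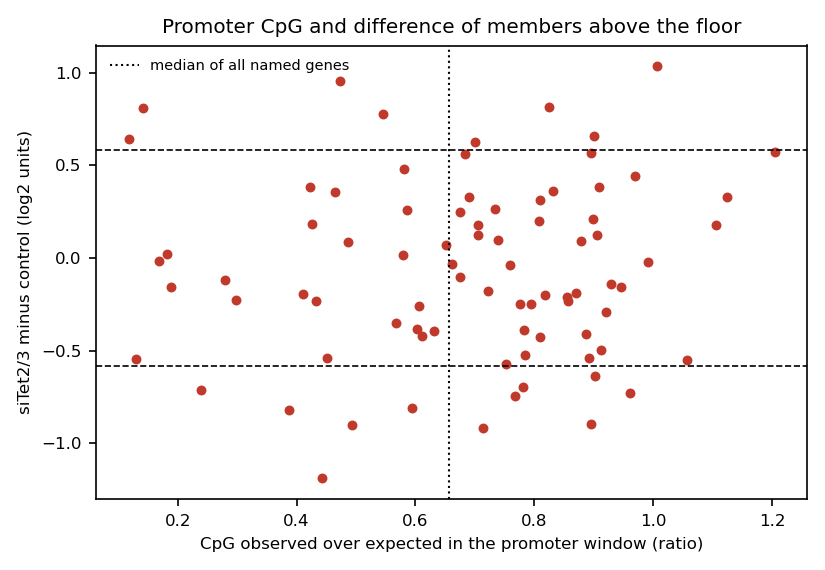
Each point is a member above the floor with a listed promoter (82 genes); the horizontal axis is the ratio of observed to expected CG sites and the vertical axis the difference in log2 units, siTet2/3 minus control. The dotted line is the median ratio of all named genes, dashed lines mark 1.5-fold, and genes past 1.5-fold in both directions appear on either side of the dotted line.

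The partners through which KRAB zinc finger proteins act were read from a list of 33 genes, of which 18 had a named probe set and 17 passed the floor. Of these 17, 2 were at least 1.5-fold higher and 3 lower, with a median difference of 0.02 log2 units. With so few genes, these 5 (29.4%) are read beside the 21.8% of all named genes, 8.63% higher and 13.2% lower, and only the single values are described. Trim28, the scaffold itself, read 11.09 on the siTet2/3 array and 11.29 on the control array, and the methyltransferase gene Setdb1 read 7.28 on the siTet2/3 array and 7.53 on the control array. Neither passed 1.5-fold. The heterochromatin protein gene Cbx5 read 11.19 on the siTet2/3 array and 11.96 on the control array (1.71-fold lower), while its relative Cbx3 read 13.78 on the siTet2/3 array and 13.56 on the control array. Suv39h1, a histone methyltransferase gene, read 9.86 on the siTet2/3 array and 10.81 on the control array (1.94-fold lower), and Daxx, a histone chaperone gene, read 6.67 on the siTet2/3 array and 7.78 on the control array (2.16-fold lower). Of the remodeller genes, Smarcad1 read 10.03 on the siTet2/3 array and 9.18 on the control array (1.80-fold), and Hells read 10.26 on the siTet2/3 array and 9.56 on the control array (1.62-fold).

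Other zinc finger families were counted in the same way, beside the 21.8% of all named genes past 1.5-fold (8.63% higher and 13.2% lower). Of 26 Zbtb genes above the floor, whose proteins pair zinc fingers with a BTB domain, 2 were higher and 2 lower (15.4%). Their median was -0.01 log2 units. Zbtb18 read 7.01 on the siTet2/3 array and 6.14 on the control array (1.83-fold higher), and Zbtb17, the partner of Myc known as Miz1, read 5.12 on the siTet2/3 array and 5.93 on the control array (1.76-fold lower). Of 5 Zscan and Zkscan genes 1 was lower (20.0%), Zscan21, at 5.25 on the siTet2/3 array and 6.31 on the control array. Of 11 lettered Zfp genes 1 was higher and 2 lower (27.3%). Of 44 genes of other zinc-binding families (Zc3h, Zcchc, Zdhhc, Zfyve and Zmym) 3 were higher and 4 lower (15.9%). These counts are small, and no difference between families or from all named genes was tested.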

How the data were processed

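Total RNA of 1 siTet2/3 and 1 control culture was labelled from a whole-transcript kit and read on 1 array each, per the labels' protocols. The deposited values are log2 signals per probe set; the submitters' processing notes name RMA and the Transcriptome Analysis Console, with build and annotation not given in the sources used here. The sorted columns differed by at most 0.151, so total RNA per cell cannot be compared, and the scale ends at 19.93. A platform annotation named 15049 of 24834 rows; the mean was taken over probe sets of a gene (10 genes, none a member). All 143 members matched RefSeq GRCr8 by entrez identifier. Values were handled with pandas 2.3.3 and the trend on level with statsmodels 0.14.6 (lowess, span 0.3). The counting code was run on simulated data with little noise and 2-fold changes set only in genes well above the floor. That run says nothing on the noise of these arrays, on smaller differences or on genes near the floor. Members and lists were chosen with earlier results of these data known. Genes named are the 12 largest differences each way, the role list, partner genes and run members past 1.5-fold, and those nearest the limit; others were named after their values were seen. The level range and pairs of neighbours were also added then. Alternatives changed the floor, scaling, probe rule, limit and membership. There were 0 columns of unknown samples.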

Additional observations from a re-analysis of the deposited data

How the results depend on the processing

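With a floor from negative-control probe sets (8.31 log2 units) 25 members remained, 3 of them higher and 4 lower (28.0%, where 17.0% of all named genes passed), against 10 and 15; with a 2-fold limit 2 were higher and 2 lower. Over the other floors, scalings and probe rules and with lettered symbols added, the counts ran from 7 to 13 higher and 12 to 18 lower. The members' median ran from -0.18 to -0.04 over all settings, and 13 of the 15 lower members and all 10 higher ones passed 1.5-fold once differences were centred or detrended on level. The median of all named genes was -0.05, 0.00 with no floor or after centring and 0.00 (0.0035) after removal of the trend. The median of the 51 CG-rich members changed sign after centring (0.02) and removal of the trend (0.01). With values raised to the floor, Zfp472 and Zfp282 differed by 0.13 and -0.35 log2 units. The comparison by KRAB motif and the choice of members by finger count were not run, because no protein sequences were used here. No paired analysis was possible because each group has 1 array.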
